A study of Mus musculus with 4 samples.

Results

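Collagen chains are the genes whose symbol consists of Col, a number, the letter a and a number. The count files listed 44 of them among 53465 genes. A count was found for 44 of the 44 in at least 1 library, and 30 were high enough to be tested. Primary (1°) mouse oligodendroglial cells (OGCs) from the forebrain of pups aged between 2 and 4 days were cultured as mixed glia, shaken off, depleted of microglia and kept in differentiation medium for 3 days before RNA-Seq. There were 2 libraries of ctrl cells (Zfp276 flox/flox) and 2 of Zfp276cko cells (Zfp276 flox/flox with the Sox10::Cre transgene), and each library came from a separate preparation of 3 pooled mice. All 4 libraries thus carry the floxed alleles, and the Cre transgene, a BAC active in the oligodendroglial lineage from the precursor stage, distinguishes the genotypes. According to the methods, mice for such cultures also had a stop-floxed tdTomato allele, by which Zfp276cko newborns were recognized. Whether the ctrl pups carried this allele was not stated. Transgenic and control mice were of mixed strain background. Effects of Cre, of tdTomato or of strain background apart from the loss of Zfp276 were not tested. Cells of a culture in which the transgene is not active keep intact floxed alleles.

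Collagens are matrix proteins built from chains that wind around each other, and they are grouped into numbered types. Fibrillar collagens form fibres, collagen IV forms the sheet of basement membranes, FACIT collagens sit on the surface of fibrils, and a few collagens span the cell membrane or carry long non-collagenous parts. In the brain, collagens I and III are mainly products of meningeal and perivascular fibroblasts, and collagen IV of vessels and meninges.

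Counted reads per library ranged from 21068322 to 26599809. Normalized counts of the deleted gene Zfp276 were 1648 in ctrl replicate 1, 2230.3 in ctrl replicate 2, 489.5 in Zfp276cko replicate 1 and 503 in Zfp276cko replicate 2 (log2 fold change −1.97, adjusted p = 0.0962 from the edgeR test described below). Both Zfp276cko libraries thus lay below both ctrl libraries and kept a residual level. Normalized counts are counts scaled to a common effective library size. The 12 listed oligodendrocyte markers were all tested and summed to between 230588 and 453803 normalized counts per library, and 11 of them had both Zfp276cko libraries below both ctrl libraries (23.7% of all tested genes). Sox10, the lineage factor, had between 17805 and 20744 normalized counts in each library. The ctrl replicates differed from each other far more than the Zfp276cko replicates did. After counting error was taken off, the relative spread (edgeR's biological coefficient of variation) amounted to 0.354 for the ctrl pair but 0.0480 for the Zfp276cko pair. Every comparison below rests on at most 2 libraries per genotype.

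Collagen chains took 0.266% of the counts in ctrl replicate 1 (exact 95% binomial interval 0.264% to 0.268%, which covers counting error only), 0.142% in ctrl replicate 2 (0.140% to 0.144%), 0.172% in Zfp276cko replicate 1 (0.171% to 0.174%) and 0.180% in Zfp276cko replicate 2 (0.178% to 0.181%). Ctrl replicate 1 therefore held the largest share and ctrl replicate 2 the smallest, with both Zfp276cko libraries between them. In such bulk libraries, more cells of a type and more RNA per cell cannot be told apart. Summed over the 44 genes, normalized counts averaged 50517 ± 23841 (SD, n = 2) over the ctrl libraries, against 40233 ± 1236 (SD, n = 2) over the Zfp276cko libraries. The genotypes overlapped in this sum, with p = 1 in a two-sided exact permutation test whose smallest possible p is 0.333.

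A small group of chains made up most of this signal. Per length, in reads per kilobase of exon scaled to library size (RPKM on effective library sizes), 6 chains had a mean of at least 10 over the 4 libraries, 15 had a mean between 1 and 10, and 23 lay below 1. The highest mean level per length was that of Col11a1, a chain of the fibrillar collagen XI, with 101 in ctrl replicate 1, 44.3 in ctrl replicate 2, 49.4 in Zfp276cko replicate 1 and 52.5 in Zfp276cko replicate 2. It took between 37.8% and 45.1% of the collagen counts of a library. Col11a2, which encodes another chain of collagen XI, followed with levels per length of 35.4 and 43.0 in the ctrl libraries against 53.7 and 57.8 in the Zfp276cko libraries. The ranges of these genes overlapped, and Col11a2 had the lower level in both ctrl libraries and the higher level in both Zfp276cko libraries. The next 4 were FACIT collagens. Mean levels per length were 31.7 for Col9a3, 24.7 for Col16a1, 22.4 for Col9a1 and 15.5 for Col20a1. Col9a1 and Col9a3 encode chains of collagen IX, and the remaining chain, Col9a2, had a mean level per length of 5.49. Col16a1 had levels per length between 14.9 and 37.1, so its place beside Col9a3 and Col9a1 was not separated from the spread over libraries. The highest mean outside these genes and Col9a2 was the 4.36 of Col1a1, which rested on 1 library.

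**Figure D1:**
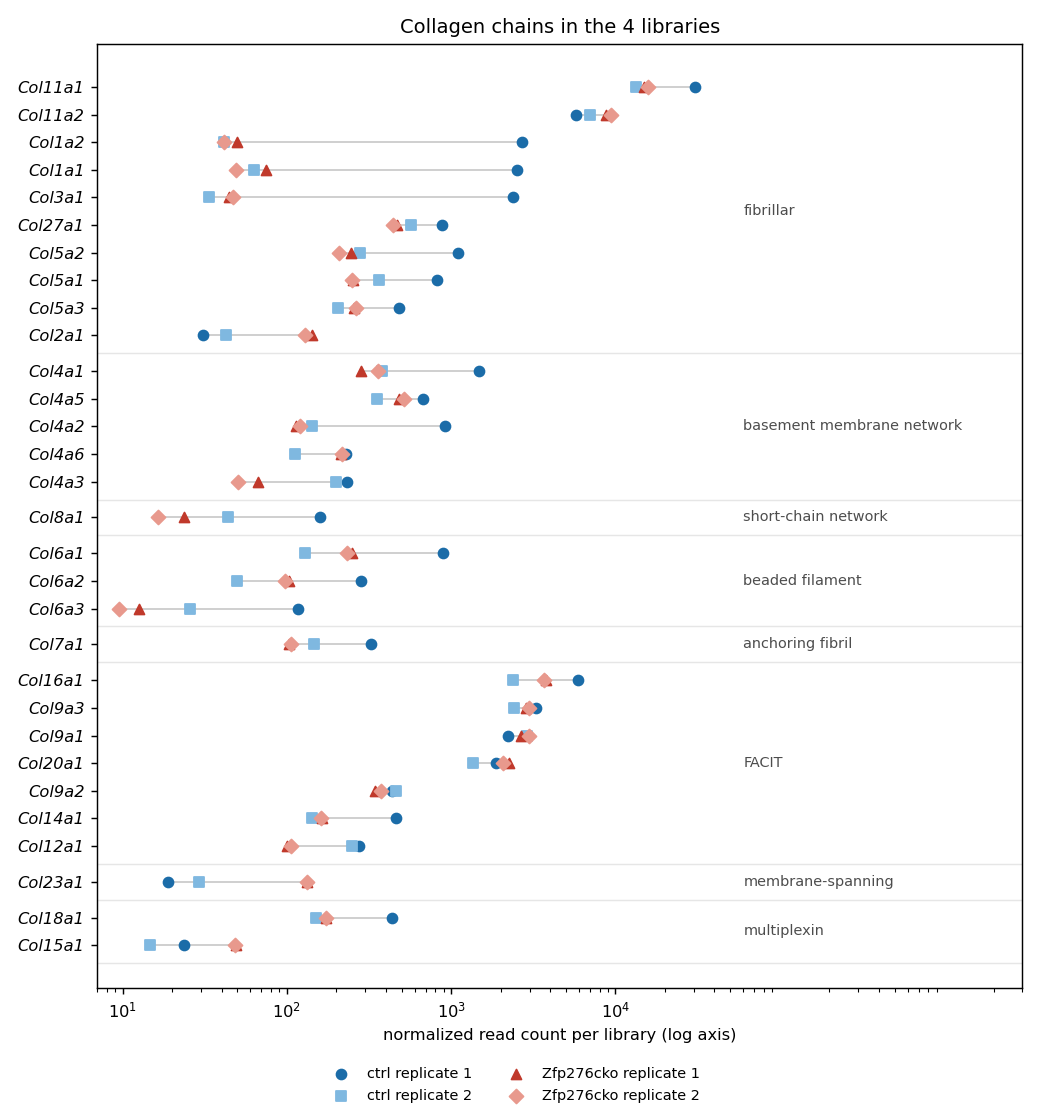
Normalized read counts (log axis) of the 30 tested collagen chains, grouped by structural class. Each symbol is 1 library, and the grey line spans the 4 libraries. Ctrl replicate 1 (dark blue circles) was the highest library for 23 of the 30 genes, and the symbols of the 2 Zfp276cko libraries lie close together.

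Promoter sequences of RefSeq (build GRCm38.p6) were at hand for 35 of the 44 chains. Shown here are the 250 bases before the RefSeq start of 5 chains that behaved differently in these cultures. Col3a1 was high in 1 ctrl library, Col11a1 was the most counted chain, Col23a1 and Col15a1 had higher values in both Zfp276cko libraries, and Col8a1 had lower values in both. Capitals mark the letters CCAAT or TATAAA on either strand (ATTGG and TTTATA on the other), which are the core letters of the CCAAT box and of the TATA box.
Col3a1, chr1:45311288-45311537, plus strand: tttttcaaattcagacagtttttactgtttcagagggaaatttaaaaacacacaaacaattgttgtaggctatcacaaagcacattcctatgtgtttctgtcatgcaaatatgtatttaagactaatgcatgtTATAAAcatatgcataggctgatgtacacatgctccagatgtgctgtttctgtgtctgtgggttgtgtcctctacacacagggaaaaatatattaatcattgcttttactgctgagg
Col11a1, chr3:114030290-114030539, plus strand: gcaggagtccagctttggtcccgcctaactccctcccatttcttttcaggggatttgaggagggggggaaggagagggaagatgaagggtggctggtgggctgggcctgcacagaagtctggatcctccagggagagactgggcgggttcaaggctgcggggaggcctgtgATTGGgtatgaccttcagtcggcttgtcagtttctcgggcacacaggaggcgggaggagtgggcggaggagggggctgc
Col23a1, chr11:51289670-51289919, plus strand: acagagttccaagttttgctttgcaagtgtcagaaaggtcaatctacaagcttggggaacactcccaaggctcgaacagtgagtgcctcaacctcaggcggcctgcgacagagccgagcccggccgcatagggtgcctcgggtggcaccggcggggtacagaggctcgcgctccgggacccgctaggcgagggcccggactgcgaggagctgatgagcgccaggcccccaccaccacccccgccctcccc
Col15a1, chr4:47207762-47208011, plus strand: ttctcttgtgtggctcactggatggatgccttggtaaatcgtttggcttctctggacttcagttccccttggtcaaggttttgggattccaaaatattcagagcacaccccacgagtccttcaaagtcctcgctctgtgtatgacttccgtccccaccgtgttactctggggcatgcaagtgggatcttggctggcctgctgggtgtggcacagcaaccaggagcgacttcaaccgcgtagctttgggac
Col8a1, chr16:57754738-57754987, minus strand: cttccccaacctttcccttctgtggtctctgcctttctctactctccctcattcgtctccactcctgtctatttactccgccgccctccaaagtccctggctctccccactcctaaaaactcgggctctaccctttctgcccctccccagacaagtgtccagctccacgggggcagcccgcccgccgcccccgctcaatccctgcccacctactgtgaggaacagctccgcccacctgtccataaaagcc
The Col3a1 window held TATAAA, the Col11a1 window held ATTGG, and the other 3 windows held neither motif. All are written 5′ to 3′ on the strand of the gene. CCAAT on either strand occurred in 33.8% of 32851 mouse promoter windows of this length and in 13 of the 35 collagen chains. TATAAA on either strand occurred in 12.4% of the windows and in 5 of the 35 chains. A chain was counted where any of its windows held the motif, whereas the percentages count single windows, so the units differ. These matches are descriptions of the letters and do not show factor binding.

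The ctrl replicates were compared gene by gene, as 1 library against 1 and hence without a test. The 30 tested chains all averaged 20 normalized counts or more, and 18 of them were at least 2-fold higher in ctrl replicate 1 than in ctrl replicate 2 (60%), where 6.81% of all 14345 genes at this level were. In the opposite direction there were 0 of the 30, against 6.02% of all genes. The median log2 difference, ctrl replicate 1 minus ctrl replicate 2, was 1.17 for the collagen chains and 0.0013 for all genes. The Zfp276cko replicates were at least 2-fold apart for 0 of the 30 chains, against 0.362% of all genes, and the largest log2 difference between them was 0.59. Ctrl replicate 1 was at least 2-fold above each of the other 3 libraries for 14 of the 30 (2.24% of all genes), whereas ctrl replicate 2 was so for 0 (0.934% of all genes). Ctrl replicate 1 was the highest of the 4 libraries for 23 of the 30 (31.6% of all genes) and ctrl replicate 2 the lowest for 13 (30.9% of all genes). Ctrl replicate 2 was the highest for 1, Col9a2 (30.2% of all genes), and ctrl replicate 1 the lowest for 4 (32.6% of all genes).

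**Figure D2:**
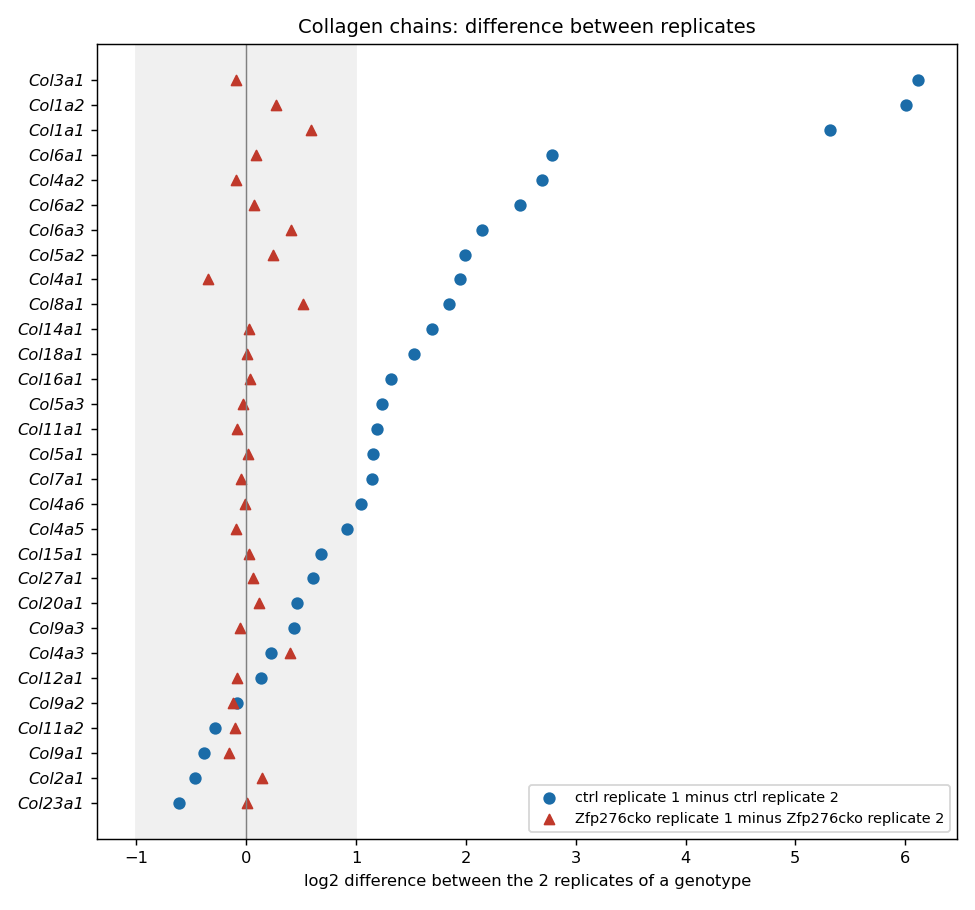
Log2 difference of normalized counts between the 2 replicates of each genotype for the 30 tested collagen chains, sorted by the ctrl difference. The grey band marks differences below 2-fold. Blue circles (ctrl) reach 6.12 for Col3a1 and lie right of the band for 18 genes, and red triangles (Zfp276cko) all lie within it.

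Chains of collagens I and III, the bulk fibres of connective tissue, showed the largest contrast. Col1a1 (chromosome 11 of mm10, 94936224 to 94953042) had 2522 normalized counts in ctrl replicate 1, 63.0 in ctrl replicate 2, and 74.2 and 49.0 in Zfp276cko replicates 1 and 2. Col1a2 (chromosome 6, 4504814 to 4541544), whose product joins that of Col1a1 in collagen I, had 2703 normalized counts in ctrl replicate 1, 41.6 in ctrl replicate 2, and 49.8 and 41.2 in Zfp276cko cells. Col3a1 (chromosome 1, 45311538 to 45349706), the chain of collagen III, had 2381 normalized counts in ctrl replicate 1, 33.8 in ctrl replicate 2, and 44.3 and 47.3 in Zfp276cko cells. Ctrl replicate 1 alone was high for these genes, by 40.0-fold, 64.9-fold and 70.5-fold over ctrl replicate 2, and ctrl replicate 2 was at the level of the Zfp276cko libraries.

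Between genotypes the log2 fold changes were therefore large and imprecise. They came to −4.39 for Col1a1 (standard error, SE, 1.77), −4.91 for Col1a2 (SE 1.97) and −4.72 for Col3a1 (SE 1.96). The Benjamini-Hochberg adjusted p-values of edgeR's quasi-likelihood test were 0.351, 0.350 and 0.360 in that order. Without ctrl replicate 1 the values were −0.037, 0.13 and 0.44, so that the size of these differences rested on that library.

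Collagen V, which copolymerizes with collagen I and limits the width of its fibrils, was also highest in ctrl replicate 1 for each of its chains, by less than collagens I and III. Col5a2, the convergent neighbour of Col3a1 at a distance of 24614 bp, had 1101 normalized counts in ctrl replicate 1, 277 in ctrl replicate 2, and 247 and 209 in Zfp276cko cells. Col5a1 had 814 and 365 in the ctrl libraries against 252 and 249 in the Zfp276cko libraries. For both genes the Zfp276cko libraries lay below both ctrl libraries, with log2 fold changes of −1.59 and −1.23 and adjusted p-values of 0.377 and 0.301 from edgeR. Without ctrl replicate 1 these values were −0.28 for Col5a2 and −0.54 for Col5a1. Col5a3 had 479.7 and 204 normalized counts in the ctrl libraries against 258 and 264 in the Zfp276cko libraries, so the genotypes overlapped.

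In the cartilage-type fibrillar group, Col11a1 had 30416 normalized counts in ctrl replicate 1, 13338 in ctrl replicate 2, and 14885 and 15814 in Zfp276cko cells. Ctrl replicate 1 again stood above the other libraries, and the log2 fold change of −0.51 (SE 0.42, edgeR adjusted p = 0.610) turned to 0.20 without it. Col11a2 had 5755 and 6993 normalized counts in the ctrl libraries against 8727 and 9389 in the Zfp276cko libraries. Here the Zfp276cko libraries were both higher than either ctrl library, with a log2 fold change of 0.51 (SE 0.14, edgeR adjusted p = 0.235). Col2a1, the chain of the cartilage collagen II, had 30.9 and 42.8 normalized counts in the ctrl libraries against 143 and 129 in the Zfp276cko libraries. The genotypes did not overlap, and ctrl replicates 1 and 2 were both low. Col27a1 had 875 and 573 in the ctrl libraries against 465 and 444 in the Zfp276cko libraries, with a log2 fold change of −0.67 (adjusted p = 0.313 from edgeR). Col24a1 was not tested, with at most 4 counts in a library.

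The chains of collagen IV lie in the genome as pairs that start next to each other and are read in opposite directions. The annotated starts of Col4a1 and Col4a2, the chains found in nearly every basement membrane, are 21 bp apart on chromosome 8, so that their first exons overlap by 22 bp. Col4a1 had 1472 normalized counts in ctrl replicate 1, 381 in ctrl replicate 2, and 283 and 361 in Zfp276cko cells. Col4a2 had 921 in ctrl replicate 1, 142 in ctrl replicate 2, and 113 and 120.3 in Zfp276cko cells. Both genes of the pair were high in ctrl replicate 1, by 3.86-fold and 6.50-fold over ctrl replicate 2. Their log2 fold changes between genotypes were −1.52 and −2.19 (adjusted p = 0.388 and 0.366 from edgeR), and −0.24 and −0.28 without ctrl replicate 1.

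Col4a3 and Col4a4, whose products join with that of Col4a5 in the kidney filter, start 72 bp apart on chromosome 1. Col4a3 (82586921 to 82722059) had 232 and 198 normalized counts in the ctrl libraries against 67.0 and 50.7 in the Zfp276cko libraries. The genotypes did not overlap and the ctrl replicates were close to each other. The log2 fold change was −1.87 (SE 0.26, edgeR adjusted p = 0.123). Exons of a gene on the opposite strand, C430014B12Rik, cover 5.65% of the Col4a3 exons, and the strand setting of the counting was not given in the sources used here. Col4a4 had 0 and 2 counts in the ctrl libraries against 12 and 11 in the Zfp276cko libraries. Taken against a floor of 3 counts in each ctrl library it was at least 2.93-fold higher, and the gene was too low to be tested. That bound leaves out the counting error of the Zfp276cko libraries. The counts of Col4a3 and Col4a4 thus went in opposite directions, for Col4a4 on at most 12 counts in a library and without a test. Col4a5 and Col4a6, 1309 bp apart on the X chromosome, overlapped between genotypes. Col4a5 had 671 and 356 normalized counts in the ctrl libraries against 482 and 515 in the Zfp276cko libraries. Col4a6 had 230.3 and 111 in the ctrl libraries against 214 and 216 in the Zfp276cko libraries.

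Collagen VI forms beaded microfibrils around cells. Col6a1 had 894 normalized counts in ctrl replicate 1, 129 in ctrl replicate 2, and 249 and 234 in Zfp276cko cells. Ctrl replicate 1 was the highest and ctrl replicate 2 the lowest of the 4 libraries. The log2 fold change of −1.08 (adjusted p = 0.620 from edgeR) became 0.90 without ctrl replicate 1 and −1.90 without ctrl replicate 2. Col6a2, on the same strand of chromosome 10 as Col6a1, had the same order of libraries with 281, 49.5, 103 and 97.9 normalized counts. Col6a3 had 116 and 25.9 in the ctrl libraries against 12.7 and 9.45 in the Zfp276cko libraries, with a log2 fold change of −2.67 (SE 0.85, edgeR adjusted p = 0.276). Its genotypes did not overlap, and the value was −1.22 without ctrl replicate 1. Col6a4, Col6a5 and Col6a6 were not tested, with at most 10 counts in a library.

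Among the FACIT collagens the chains of collagen IX differed by less than 2-fold between any of the libraries. Col9a1 had 2207 and 2874 normalized counts in the ctrl libraries against 2671 and 2982 in the Zfp276cko libraries. Col9a3 had 3294 and 2427 in the ctrl libraries against 2848 and 2961 in the Zfp276cko libraries, and exons of Tcfl5 on the opposite strand cover 6.07% of the Col9a3 exons. Both overlapped between genotypes, with log2 fold changes of 0.15 (standard error 0.16) and 0.022 (0.17). Col9a2 had 433 and 459 in the ctrl libraries against 343 and 372 in the Zfp276cko libraries, without overlap and with a log2 fold change of −0.32 (adjusted p = 0.383 from edgeR). Col16a1 had 5922 normalized counts in ctrl replicate 1 and 2372 in ctrl replicate 2, with 3769 and 3681 in Zfp276cko cells. Its Zfp276cko libraries lay between the ctrl libraries. Col20a1 had 1877 and 1358 in the ctrl libraries against 2252 and 2069.7 in the Zfp276cko libraries, without overlap and with a log2 fold change of 0.42 (adjusted p = 0.379 from edgeR). Col12a1, whose product binds to collagen I fibrils, had 273 and 249 normalized counts in the ctrl libraries against 99.5 and 106 in the Zfp276cko libraries. Both ctrl libraries were high in this case, and the log2 fold change of −1.35 had a standard error of 0.19 (adjusted p = 0.123 from edgeR). Col14a1 had 461 in ctrl replicate 1, and the other 3 libraries lay between 142 and 164. Col19a1 and Col22a1 were not tested, with at most 15 counts in a library.

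Of the remaining classes, Col23a1 (chromosome 11, 51289920 to 51583918), a membrane-spanning collagen, had the largest positive difference between genotypes. It had 19.0 and 29.3 normalized counts in the ctrl libraries against 133 and 132 in the Zfp276cko libraries. The genotypes did not overlap, and the log2 fold change of 2.45 (standard error 0.32) had the smallest adjusted p of the 30 chains (0.121 from edgeR). Col15a1, a multiplexin of basement membrane zones, had 23.7 and 14.6 in the ctrl libraries against 48.9 and 48.1 in the Zfp276cko libraries (log2 fold change 1.33, adjusted p = 0.230 from edgeR). The other multiplexin, Col18a1, from which endostatin is cut, had 435 in ctrl replicate 1, and the other 3 libraries lay between 151 and 173. Col7a1, the anchoring fibril chain, had 324 and 146 in the ctrl libraries against 103 and 107 in the Zfp276cko libraries, with a log2 fold change of −1.16 (edgeR adjusted p = 0.330) that was −0.48 without ctrl replicate 1. Col8a1, a short-chain network collagen, had 159 and 43.9 in the ctrl libraries against 23.5 and 16.3 in the Zfp276cko libraries, with a log2 fold change of −2.34 (SE 0.73, edgeR adjusted p = 0.272) that was −1.14 without ctrl replicate 1. For both of these genes the genotypes did not overlap. The untested Col8a2, Col10a1, Col13a1, Col17a1, Col25a1, Col26a1 and Col28a1 had at most 14 counts in a library. In all, 14 chains were untested, and 2 of them (Col6a5 and Col13a1) had 3 counts or fewer in each library.

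Over the 30 tested chains, edgeR's quasi-likelihood test called 0 higher and 0 lower in Zfp276cko cells, and the background was 0% of 15766 genes in each direction. Genes were called where the adjusted p was 0.05 or less, the log2 fold change was 0.6 or more in size, and 20 or more normalized counts were reached on average. When the unadjusted p was put in place of the adjusted one, 3 chains were higher (Col23a1, Col2a1 and Col15a1; 5.11% of all tested genes) and 6 were lower (Col4a3, Col12a1, Col5a1, Col8a1, Col6a3 and Col27a1; 3.02% of all tested genes). By the unadjusted p alone, 10 of the 30 chains and 2464 of all tested genes passed. DESeq2 called 2 chains higher (Col23a1 and Col2a1; 2.92% of all genes) and 3 lower (Col4a3, Col12a1 and Col8a1; 2.21% of all genes). Without overlap between genotypes, the Zfp276cko libraries were higher for 5 chains (26.8% of all tested genes) and lower for 11 (23.7% of all tested genes). The median log2 fold change was −0.74 over the 30 chains and −0.0013 over all tested genes.

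The 2 ctrl libraries did not carry this median equally. Without ctrl replicate 1 it was 0.19, and without ctrl replicate 2 it was −1.35, each over the 33 chains that then passed the filter. For 13 of the 30 chains the direction differed between these settings, which share the same Zfp276cko libraries. The share of all tested genes with such a change was not counted. It was not counted either for the patterns of the chains named at the end of this paragraph. With a single ctrl library, edgeR takes its spread from the Zfp276cko replicates, so that calls are more frequent than the spread between the ctrl replicates allows. Without ctrl replicate 1, 8 of 33 tested chains were then called higher (10.2% of all tested genes) and 3 lower (5.76%). Without ctrl replicate 2, 4 of 33 were called higher (10.8%) and 20 lower (7.77%). Chains called in the same direction with either ctrl library left out were Col23a1, Col2a1 and Col15a1, which were higher, and Col4a3, Col12a1 and Col8a1, which were lower. Col6a1, Col6a2 and Col16a1 were called in opposite directions.

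**Figure D3:**
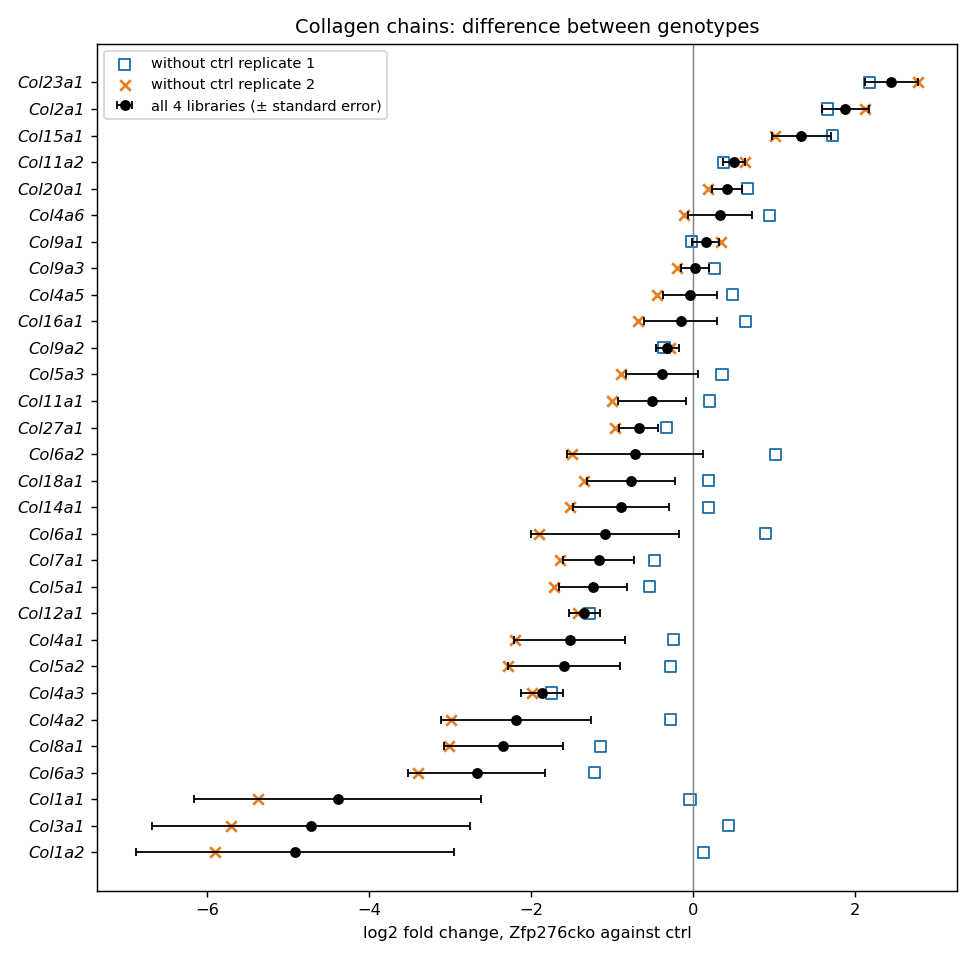
Log2 fold change of Zfp276cko against ctrl for the 30 tested collagen chains. Black points with bars are the fit to the 4 libraries ± standard error, blue squares leave out ctrl replicate 1 and orange crosses ctrl replicate 2. For Col1a1, Col1a2 and Col3a1 the squares lie near 0, whereas for Col23a1, Col2a1, Col4a3 and Col12a1 both symbols stay on the side of the black point.

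Markers of other cell types also differed between the ctrl libraries. The 18 listed fibroblast and mural cell markers summed to 3295 normalized counts in ctrl replicate 1, 826 in ctrl replicate 2, and 844 and 788 in Zfp276cko cells. The like sums of ctrl replicate 2 and the Zfp276cko libraries came from different genes. Anpep had 856 and 190 in the ctrl libraries against 509 and 496 in Zfp276cko cells, whereas Acta2 and Tagln (below) were lower in Zfp276cko cells than in ctrl replicate 2. Myh11 went the other way between the ctrl libraries, with 19.0 in replicate 1 and 31.5 in replicate 2. Of the 9 with a mean of at least 20, 6 were at least 2-fold higher in ctrl replicate 1 than in ctrl replicate 2 and 0 were 2-fold lower (6.81% and 6.02% of all genes). Decorin (Dcn), a proteoglycan on collagen fibrils, had 224 normalized counts in ctrl replicate 1 and between 12.4 and 16.3 in the other libraries. Pdgfrb, a receptor of mural cells and fibroblasts, had 127 in ctrl replicate 1 and between 18.0 and 35.3 in the others. The actin Acta2 and its partner Tagln were high in both ctrl libraries relative to Zfp276cko cells. Acta2 had 914 and 284 normalized counts in ctrl against 88.7 and 78.2, and Tagln had 811 and 195 against 64.2 and 57.6. DESeq2 called both lower in Zfp276cko cells, and the edgeR adjusted p was 0.186 for Acta2 and 0.209 for Tagln. The mural cell markers Abcc9 and Vtn had 3 counts or fewer in each library. The part of these markers in the collagen values was not tested.

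**Figure D4:**
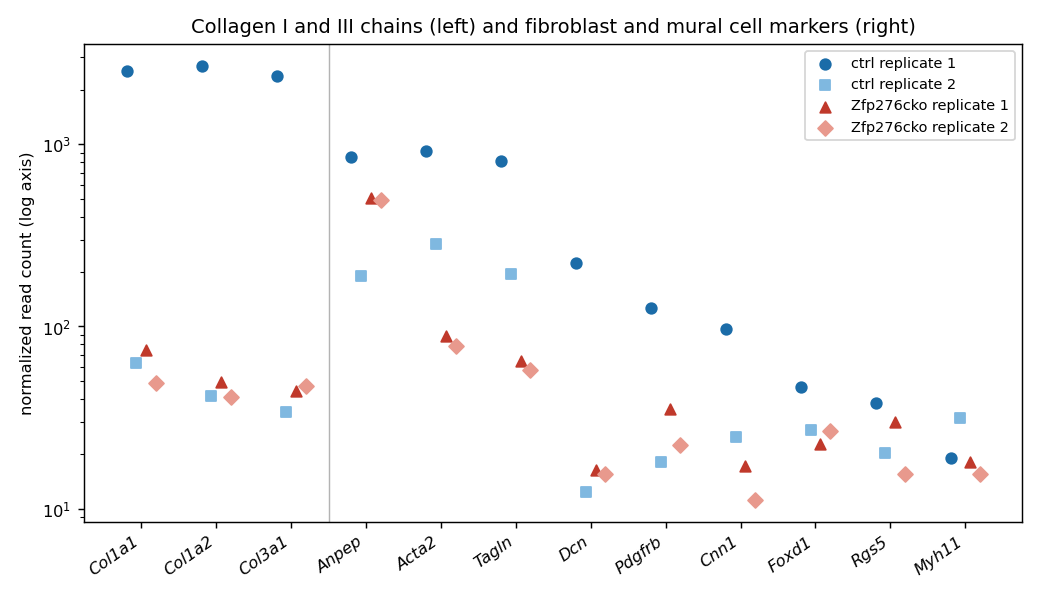
Normalized read counts (log axis) of the collagen I and III chains, left of the line, and of the 9 fibroblast and mural cell markers with a mean of at least 20, right of it, with 1 symbol per library. Ctrl replicate 1 (dark blue circles) is between 2381 and 2703 for the collagen chains, where the other libraries are between 33.8 and 74.2, and it is the highest library for 8 of the 9 markers.

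The other marker lists differed in several ways. The 10 endothelial markers summed to between 192 and 305 normalized counts per library, with Cldn5 at 0 counts in each library and Tek, Ly6c1, Emcn and Tie1 at 3 counts or fewer. The 10 microglia markers summed to 55421 in ctrl replicate 1 and to between 36379 and 40515 in the other libraries. In ctrl replicate 1, 4 of the 10 were at least 2-fold higher and 1 at least 2-fold lower than in ctrl replicate 2 (6.81% and 6.02% of all genes). Csf1r had 11409 normalized counts in ctrl replicate 1 against 1850.0 in ctrl replicate 2, whereas Aif1 had 1248 against 3204. Of the 10 neuron markers, the 9 with a mean of at least 20 had a median log2 difference of −3.74 between ctrl replicates 1 and 2. Among these, 6 of 9 were at least 2-fold lower in ctrl replicate 1 (6.02% of all genes). The 10 astrocyte markers summed to between 29112 and 37729.6, with Gjb6 at 0 in each library. Of 9 astrocyte markers, 2 were at least 2-fold higher and 4 at least 2-fold lower in ctrl replicate 1 (6.81% and 6.02% of all genes). The 8 oligodendrocyte precursor markers summed to 221750 and 155030 in the ctrl libraries against 121305 and 119921 in the Zfp276cko libraries. Gpr17 alone had 113405 normalized counts in ctrl replicate 1. Of the 8, 5 had both Zfp276cko libraries below both ctrl libraries and 0 had both above (23.7% and 26.8% of all tested genes). The part of these differences in the collagen values was not tested either.

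Collagen chains need enzymes that hydroxylate and fold them. All 18 listed genes of this kind were tested. By the unadjusted p with its limits on size and mean, 1 was higher and 0 were lower in Zfp276cko cells (5.11% of all tested genes higher and 3.02% lower), and the median log2 fold change was −0.066. The higher gene was the lysyl hydroxylase Plod1, with 2242 and 2172 normalized counts in the ctrl libraries against 3667 and 3533 in the Zfp276cko libraries (log2 fold change 0.71, SE 0.09, edgeR adjusted p = 0.117), and DESeq2 also called it. P4hb, a subunit of prolyl hydroxylase, had a log2 fold change of −0.19, and the cyclophilin Ppib had one of −0.22. The genotypes did not overlap in P4hb or Ppib.

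Of 17 genes for export, cleavage and crosslinking, 14 were tested, with 2 higher, 1 lower (5.11% of all tested genes higher and 3.02% lower) and a median log2 fold change of −0.36. The largest positive difference was that of Lox, lysyl oxidase, which crosslinks collagen fibres outside the cell. It had 1808 and 2602 normalized counts in the ctrl libraries against 14305 and 14859 in the Zfp276cko libraries. Both ctrl libraries were low, and the log2 fold change was 2.73 (SE 0.22, edgeR adjusted p = 0.0962, and called by DESeq2). In the Zfp276cko libraries, where Lox was high, the fibrillar Col1a1, Col1a2 and Col3a1 stayed at the level of ctrl replicate 2. Bmp1, the protease that removes the C-propeptide of fibrillar collagens, had a log2 fold change of −0.27, and the export coat gene Sec23a of −0.38. The paralogue Loxl3 was the other higher gene (log2 fold change 0.77) and Adamts14 the lower one (−1.24), both chosen after their values were seen. Another paralogue, Loxl2, also chosen in this way, had 278 and 18.0 normalized counts in the ctrl libraries against 10.9 and 24.9 in the Zfp276cko libraries, so its log2 fold change of −3.03 (edgeR adjusted p = 0.395) rested on ctrl replicate 1 and was 0.0035 without it.

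The 11 listed collagen receptors included 9 that were tested, with 1 higher, 0 lower (5.11% of all tested genes higher and 3.02% lower) and a median log2 fold change of −0.34. The integrin chain Itgb1 had 20043 and 14290.2 normalized counts in the ctrl libraries against 12269.9 and 13012 in the Zfp276cko libraries. The receptor kinase Ddr1 had 8759.8 and 8888 in the ctrl libraries against 6727 and 7169 in the Zfp276cko libraries. Adgrg1, an adhesion receptor that binds collagen III, had between 4668 and 4729.6 normalized counts in each library. The levels of Adgrg1 thus stayed within a narrow range while those of its ligand gene Col3a1 spanned 33.8 to 2381. The inhibitory receptor Lair1, chosen after its values were seen, was the higher gene, with 507 and 444 in the ctrl libraries against 854 and 918 in the Zfp276cko libraries.

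The 8 proteases and inhibitors of collagen breakdown were all tested, with 1 higher, 0 lower (5.11% of all tested genes higher and 3.02% lower) and a median log2 fold change of −0.54. Of these, 5 of the 8 were at least 2-fold higher in ctrl replicate 1 than in ctrl replicate 2 (6.81% of all genes). The higher gene was Mmp14, a membrane-bound collagenase, with a log2 fold change of 0.79. The inhibitors Timp2 and Timp3 had log2 fold changes of −0.0080 and 0.19. Of 13 collagen-binding matrix proteins, 12 were tested, with 0 higher and 0 lower (5.11% of all tested genes higher and 3.02% lower) and a median of −0.94. This list shares Dcn and Lum with the fibroblast markers. Of its 11 genes with a mean of at least 20, 8 were at least 2-fold higher in ctrl replicate 1 than in ctrl replicate 2 (6.81% of all genes). Fibronectin (Fn1) had 5949 normalized counts in ctrl replicate 1, 638 in ctrl replicate 2, and 448 and 427 in Zfp276cko cells. Sparc had 7779 in ctrl replicate 1 and 3195 in ctrl replicate 2, with 4134 and 3895 in Zfp276cko cells, and the basement membrane proteoglycan Hspg2 had 3267 and 1389 in the ctrl libraries against 2185 and 1929 in the Zfp276cko libraries.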

How the data were processed

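RNA was measured in 2 ctrl and 2 Zfp276cko cultures from stranded, single-end libraries (101 bp). Reads were aligned by the authors with STAR 2.5.4a to mm10, and the deposited values are raw, whole-number counts of reads for each gene symbol. Counting was done with HTSeq on Ensembl genes according to the methods and with featureCounts 1.5.1 according to the submitters' processing notes. Column totals, between 21068322 and 26599809, set the precision beside the 2 libraries per genotype.

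Genes were kept by filterByExpr (15766 of 53465), normalized with TMM and compared with edgeR 4.0.16 (R 4.3.3), using the quasi-likelihood test with Benjamini-Hochberg adjustment over all tested genes and no covariates. The same comparison was run with DESeq2 1.42.0. Ctrl replicates were compared at 2-fold with a pseudocount of 0.5 and without a test. Levels per length used the exon union of GENCODE M21, whose coordinates are those of mm10. The edgeR fit was also run on simulated counts with the same spread in both genotypes. That run does not cover the unequal spread of the ctrl and Zfp276cko pairs. Alternatives were other size factors, filters and thresholds, a replicate block and leaving out each library.

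Values per library are given for the 12 most counted chains, the 5 with the largest difference in each direction between genotypes and between ctrl replicates, and, to account for each member, for most other tested chains. From each pathway list the 3 most counted genes are named. Of the marker lists, 1 is not reported here. The members and lists were chosen with earlier results of these data known.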

Additional observations from a re-analysis of the deposited data

How the results depend on the processing

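Calls depended on the tool and, as given above, on the ctrl libraries. DESeq2 called 2 collagen chains higher and 3 lower (447 and 338 of all genes), and an unadjusted p with the same thresholds gave 3 and 6. Leaving out each library in turn gave 0 to 8 collagen chains higher and 0 to 20 lower, 0 to 1792 genes higher and 0 to 1286 lower over the whole table, 5 to 18 chains above and 12 to 25 below the ctrl libraries, and medians of the log2 fold change from −1.35 to 0.19. The share of all genes above or below the ctrl libraries was not counted with a library left out. With a single library left in a genotype, such a lack of overlap is reached more easily for any gene. Without a filter 8 genes of the whole table were called higher.

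In the same series the log2 fold change ranged from −1.0 to 0.20 for Col11a1, −0.68 to 0.65 for Col16a1, −0.19 to 0.26 for Col9a3, −0.023 to 0.34 for Col9a1, −5.91 to 0.13 for Col1a2, −5.71 to 0.44 for Col3a1, −0.44 to 0.49 for Col4a5 and −1.90 to 0.90 for Col6a1. The replicate numbers pair no samples by the labels, and the deviations of same-numbered libraries had a correlation of 0.0020 across genes. With a replicate block, 0 chains were called in either direction, the median was −0.55, and the log2 fold change was −3.20 for Col1a2, −2.93 for Col1a1, −2.92 for Col3a1 and 0.026 for Col4a5.

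Between the ctrl replicates, 20 chains were at least 2-fold higher and 2 at least 2-fold lower in replicate 1 with a minimum mean of 5. At a threshold of 1.5-fold, 21 were higher and 1 was lower. Shares over all genes were not counted at these settings. Without Col11a1 the collagen share was 0.146% and 0.0857% of counts in the ctrl libraries against 0.107% and 0.111% in the Zfp276cko libraries. The causes of these changes were not tested, apart from those that follow from fewer libraries or genes.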
